A study of Mus musculus with 12 samples.

Results

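The genes described here encode the 3 catalytic subunits of the immunoproteasome (Psmb8, Psmb9 and Psmb10) and the subunits of its activator PA28 (Psme1 and Psme2). The gene copy Psme2b is counted with the activator genes, and whether it makes a PA28 subunit was not tested. These genes were taken by gene name from a table of 633 genes that the authors list as changed by a cocktail of factors. All 6 have a row. They were selected on their levels in the contrast of cocktail against control libraries, on which the table itself also rests. Values of that contrast are therefore given as a description, with no test. The series holds 12 poly(A) RNA-seq libraries in 4 groups, all of aggregates of the mouse embryonic stem cell line 129w2, and the 6 libraries used here are 3 with the cocktail and 3 controls at day 7. Sequencing depth was not analysed here. All aggregates, the controls included, began with 3000 cells per well. They received growth-factor-reduced Matrigel, BMP4 (2 ng/ml) on day 3, and basic FGF (25 ng/ml) with retinoic acid (1 µM) on day 4, and moved to new plates on day 5. The study's title places the aggregates on a route from oral epithelium to salivary gland progenitors, and the design text says that the cocktail was tried in place of co-culture. No label states what the cocktail held, when it was given or on which day its aggregates were collected, so stage and cocktail cannot be told apart. The labels do not say whether the libraries of a group came from separate cultures, so the spread between them may be technical. Libraries are numbered below by the columns of the table, which carry no link between a control and a cocktail library.

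The proteasome is the barrel-shaped protease that degrades ubiquitin-tagged proteins, and its inner ring carries 3 kinds of catalytic subunit. Under interferon, above all interferon gamma, newly built particles take up Psmb8, Psmb9 and Psmb10 in place of the standard subunits Psmb5, Psmb6 and Psmb7, and the peptides they cut are favoured for loading on class I molecules. Psme1 (PA28 alpha) and Psme2 (PA28 beta) form a ring that caps the barrel and opens its gate. Immune cells make these subunits without stimulation, whereas most other cells make little of the catalytic ones until an interferon signal arrives.

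The genes lie at 4 places in the genome (GRCm38, GENCODE M21). Psmb8 (ENSMUSG00000024338, chromosome 17 at 34197721 to 34201454, plus strand) and Psmb9 (ENSMUSG00000096727, chromosome 17 at 34181987 to 34187764, minus strand) flank the peptide transporter gene Tap1 in the major histocompatibility complex. Psme1 (ENSMUSG00000022216, chromosome 14 at 55578123 to 55581529, plus strand) and Psme2 (ENSMUSG00000079197, chromosome 14 at 55587441 to 55591113, minus strand) are separated by 5912 bases. Psmb10 (ENSMUSG00000031897) stands at 105935735 to 105938444 on chromosome 8, minus strand. Psme2b (ENSMUSG00000078153, chromosome 11 at 48945354 to 48946190, minus strand) has 1 exon, against 11 in the coding transcript of Psme2 with the most exons.

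The promoter windows of Psmb8, Psme1 and Psmb9 are shown for the largest ratio among these genes, the smallest ratio and an overlap with Tap1's window. Each runs from 250 bases before to 50 after the RefSeq start (GRCm38.p6), 5′ to 3′ on the gene's strand, and capitals mark a match to 1 of 2 interferon-related motifs, TTCNNNGAA (GAS, the gamma-activated site) and GAAA followed by any 2 bases and GAAA (ISRE, the interferon-stimulated response element), searched on both strands.
Psmb8 (chr17:34197945-34198244, plus strand): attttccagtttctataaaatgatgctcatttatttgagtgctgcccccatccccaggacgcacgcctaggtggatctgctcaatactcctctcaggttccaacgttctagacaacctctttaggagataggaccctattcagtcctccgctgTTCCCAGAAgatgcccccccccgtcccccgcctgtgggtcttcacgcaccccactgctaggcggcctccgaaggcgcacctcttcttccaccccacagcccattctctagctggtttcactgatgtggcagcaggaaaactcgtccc
Psme1 (chr14:55578244-55578543, plus strand): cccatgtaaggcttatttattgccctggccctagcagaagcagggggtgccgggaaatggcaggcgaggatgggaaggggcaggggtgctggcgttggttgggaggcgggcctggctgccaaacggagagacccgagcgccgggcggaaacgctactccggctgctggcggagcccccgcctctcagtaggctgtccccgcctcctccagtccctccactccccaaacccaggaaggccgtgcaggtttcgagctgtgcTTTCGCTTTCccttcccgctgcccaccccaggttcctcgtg
Psmb9 (chr17:34187281-34187580, minus strand): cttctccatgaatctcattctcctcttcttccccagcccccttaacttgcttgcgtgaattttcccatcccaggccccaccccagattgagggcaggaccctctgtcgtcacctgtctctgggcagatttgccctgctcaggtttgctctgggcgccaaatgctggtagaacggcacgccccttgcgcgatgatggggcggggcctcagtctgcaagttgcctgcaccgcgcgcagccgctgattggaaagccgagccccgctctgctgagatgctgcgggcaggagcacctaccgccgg
The Psmb8 window holds 1 GAS match, which starts at position -97, and the Psme1 window holds 1 ISRE match in reverse orientation, which starts at position 10 after the start. Positions count from the RefSeq start. The windows shown lie wholly within the GENCODE bounds of their genes, so both matches lie downstream of the outermost GENCODE start. Over all 32851 promoter windows, 8.30% hold the GAS letters and 3.44% the ISRE letters. All 6 genes have a window, 7 in all because Psme2 has 2 starts, and the other 5 windows hold neither set of letters. Only exact letters were searched, so a window without them may still hold such an element. The Psmb9 window shares 275 bases, read from the other strand, with that of Tap1.

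Psme2 and Psme2b are near-identical, which bears on every value of either gene. Their coding sequences are both 720 bases long and differ at 5 bases, an identity of 99.3%, while Psme1 and Psme2 are 59.2% identical. Coding bases 424 to 543 of both are shown because they hold 3 of these differences, which are in capitals.
Psme2: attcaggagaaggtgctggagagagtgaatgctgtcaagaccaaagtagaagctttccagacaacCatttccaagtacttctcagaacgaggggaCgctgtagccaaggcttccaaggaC
Psme2b: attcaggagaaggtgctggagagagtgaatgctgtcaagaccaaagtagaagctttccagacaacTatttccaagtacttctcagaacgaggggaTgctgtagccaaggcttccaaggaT
Of all 100-base words of the Psme2b transcript, 52.0% also occur in a coding transcript of Psme2 without a mismatch, and at 150 bases 38.4% do. No label gives the read length or says how reads that match both genes were treated. The split of reads between Psme2 and Psme2b is therefore uncertain, and the sum of both is given further below.

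All 3 catalytic subunit genes were low in the controls and abundant with the cocktail. Values are FPKM, fragments scaled to transcript length and library size. They are set side by side between genes below, though the quantifier and annotation are not given and some reads may be shared between genes. Psmb8 was at 0.127, 0.133 and 0 FPKM in controls 1, 2 and 3 and at 132, 141 and 129.7 with the cocktail. Every cocktail library lay at least 973 times above the highest control. Psmb9 was at 0.464, 0.527 and 0.671 FPKM in the controls and at 91.0, 109 and 95.0 with the cocktail. The lowest cocktail library was 135 times the highest control. The Psmb9 gene overlaps Tap1 on the other strand over 212 bases, and since no label says whether strand was used in quantification, reads of the shared bases cannot be told apart. Psmb10 had the highest control level of the catalytic genes, 3.68, 2.81 and 2.04 FPKM, and stood at 106, 110.4 and 99.4 with the cocktail. In none of the 3 genes did the groups overlap. Every cocktail library was likewise above every control in 57.2% of all 633 genes of the table, which were chosen for change.

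The means of the catalytic genes put these levels in order. In the controls Psmb8 was at 0.0868 ± 0.0752, Psmb9 at 0.554 ± 0.106 and Psmb10 at 2.84 ± 0.822 FPKM (SD, n = 3), so that the library ranges of neighbours in this order did not overlap. With the cocktail the order was another, with Psmb8 at 134 ± 6.11, Psmb10 at 105 ± 5.62 and Psmb9 at 98.2 ± 9.27 FPKM (SD, n = 3). Psmb8 lay above the other catalytic genes in every cocktail library, while the ranges of Psmb10 and Psmb9 overlapped. The ratio of group means was 1547 for Psmb8, 177 for Psmb9 and 37.1 for Psmb10. The Psmb8 ratio depends on a control listed at 0: without control 3, which is listed at 0, the log2 ratio was 10.01, against 10.59 with all libraries and up to 11.05 without another control.

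The activator genes were already well expressed in the controls and differed by single-digit ratios. Psme1 was at 44.7, 43.0 and 38.4 FPKM in the controls and at 142, 133 and 132 with the cocktail, a ratio of group means of 3.23. This ratio is the only one of the 6 whose direction turned in a rescaling: with every library scaled to the same table total, Psme1 was at -0.11 and the other genes at 0.77 to 8.82 on the log2 scale. That scaling shifted the log2 ratios of all 603 genes with a value in both groups nearly alike, by a median of -1.80 (-1.85 to -1.74). The totals come from a table of genes chosen for change, so this scaling cannot decide the direction of Psme1. Psme2, its partner in the PA28 ring, was at 24.5, 22.7 and 21.4 FPKM in the controls and at 142, 147 and 132 with the cocktail, a ratio of 6.13. The copy Psme2b was at 8.67, 8.46 and 9.64 FPKM in the controls and at 47.6, 56.1 and 56.4 with the cocktail, a ratio of 5.98. For each of these genes the lowest cocktail library was at least 2.95 times the highest control. In the controls Psme1 stood at 42.1 ± 3.25, Psme2 at 22.9 ± 1.53 and Psme2b at 8.92 ± 0.629 FPKM (SD, n = 3), again in an order without overlap. With the cocktail Psme1, at 136 ± 5.79, and Psme2, at 140.2 ± 7.85, overlapped, and Psme2b, at 53.3 ± 5.01 (SD, n = 3), lay below both.

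**Figure D1:**
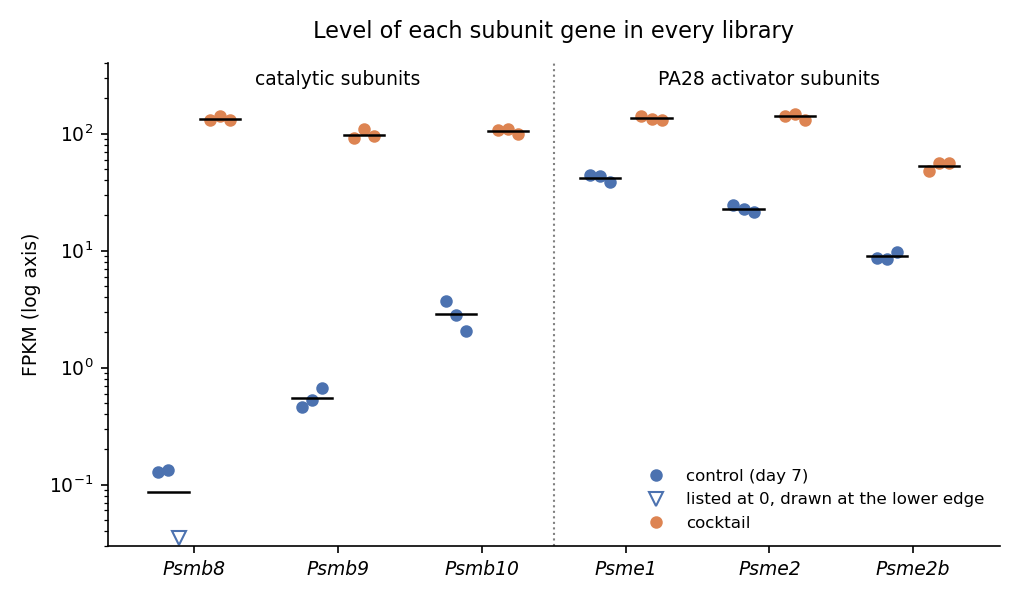
FPKM of each subunit gene (log axis) in the 3 control and 3 cocktail libraries, with the group mean as a line and the Psmb8 control at 0 drawn as an open triangle at the lower edge. The controls spread from 0.0868 (Psmb8) to 42.1 FPKM (Psme1) in their means, while the cocktail means of 5 genes lie between 98.2 and 140.2 and that of Psme2b at 53.3.

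Set against each other, the catalytic genes had larger ratios than the activator genes, while the gains in FPKM of the 2 classes overlapped. The median log2 ratio of group means was 7.47 over the 3 catalytic genes and 2.58 over the 3 activator genes, a difference of 4.89, and the smallest catalytic ratio (Psmb10, 5.21 on the log2 scale) was above the largest activator ratio (Psme2, 2.62). The gain, cocktail mean minus control mean, was 134 FPKM for Psmb8, 117 for Psme2, 103 for Psmb10, 97.6 for Psmb9, 93.6 for Psme1 and 44.4 for Psme2b. Psme1, with the smallest ratio of the 6, thus gained nearly as many FPKM as Psmb9. Ratios and control levels had opposite orders among Psmb8, Psmb9, Psmb10, Psme2 and Psme1, a relation that the control level in the denominator of the ratio favours. Psme2b was outside this order, with a lower control mean than Psme2 (8.92 against 22.9 FPKM) and a slightly smaller ratio (5.98 against 6.13). That difference in ratio was within the spread of the libraries. Without cocktail library 1 the log2 ratio was 2.66 for Psme2b and 2.61 for Psme2, and without control 3 it was 2.64 and 2.57. Leaving out any other library kept Psme2b below Psme2.

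**Figure D2:**
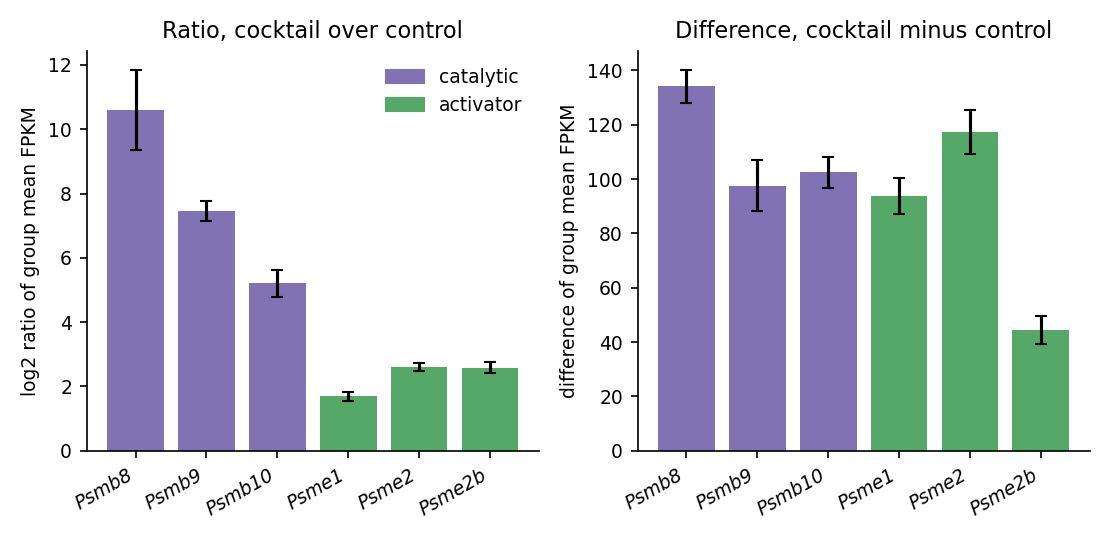
Left, log2 ratio of group mean FPKM, with bars of error from the coefficients of variation of both groups; right, difference of group mean FPKM, with the SDs of both groups combined. The ratio spans 1.69 (Psme1) to 10.59 (Psmb8) on the log2 scale, while the gain lies between 93.6 and 134 FPKM in 5 genes and at 44.4 in Psme2b.

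The levels of the genes lay closer to each other in the cocktail libraries than in the controls. The highest catalytic mean was 32.8 times the lowest in the controls and 1.37 times with the cocktail. Among the activator genes it was 4.71 times the lowest in the controls and 2.63 times with the cocktail. Over all 6 genes the highest mean was 485 times the lowest in the controls and 2.63 times with the cocktail. Over the 5 genes other than Psme2b it was 485 times in the controls and 1.43 times with the cocktail. That smaller value depends on leaving Psme2b out. With its FPKM added to Psme2, the sum was at 194 with the cocktail, against 98.2 for Psmb9. Summed over each class, the catalytic genes stood at 4.27, 3.48 and 2.71 FPKM in the controls and at 329, 360.3 and 324 with the cocktail. The activator genes summed to 77.9, 74.2 and 69.5 FPKM in the controls and to 332, 336 and 320.1 with the cocktail. The catalytic sum was therefore 5.48%, 4.68% and 3.89% of the activator sum in the controls and 99.1%, 107% and 101% in the cocktail libraries. The activator sum counts Psme2b (cocktail mean 53.3 FPKM), whose split of reads from Psme2 is uncertain. Without Psme2b these percentages would be higher.

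The make-up within each class also differed between the groups. Psmb10 gave 86.2%, 81.0% and 75.2% of the catalytic FPKM in the controls and 32.3%, 30.7% and 30.7% with the cocktail. The share of Psmb8 was 2.97%, 3.84% and 0% in the controls, and 40.0%, 39.2% and 40.0% with the cocktail. The share of Psmb9 was 10.9%, 15.2% and 24.8% in the controls and 27.6%, 30.2% and 29.3% with the cocktail. In the PA28 ring genes, the ratio of Psme1 to Psme2 was 1.83, 1.89 and 1.79 in the controls and 1.00, 0.902 and 1.00 with the cocktail. With the FPKM of Psme2b added to Psme2, it was 1.35, 1.38 and 1.24 in the controls and 0.751, 0.653 and 0.703 with the cocktail. The groups did not overlap by either reckoning. With the cocktail, Psme1 stood level with Psme2 in libraries 1 and 3 when the copy was left out, and below it in every library when the copy was counted.

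Psme2b held a like proportion of Psme2 in both groups. Its FPKM were 35.4%, 37.3% and 45.0% of those of Psme2 in the controls and 33.5%, 38.2% and 42.8% with the cocktail, and the groups overlapped. How far this proportion follows from the treatment of shared reads was not tested. The sum of both genes was at 33.1, 31.2 and 31.1 FPKM in the controls and at 189.7, 203 and 188 with the cocktail. Its log2 ratio of group means was 2.61.

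**Figure D3:**
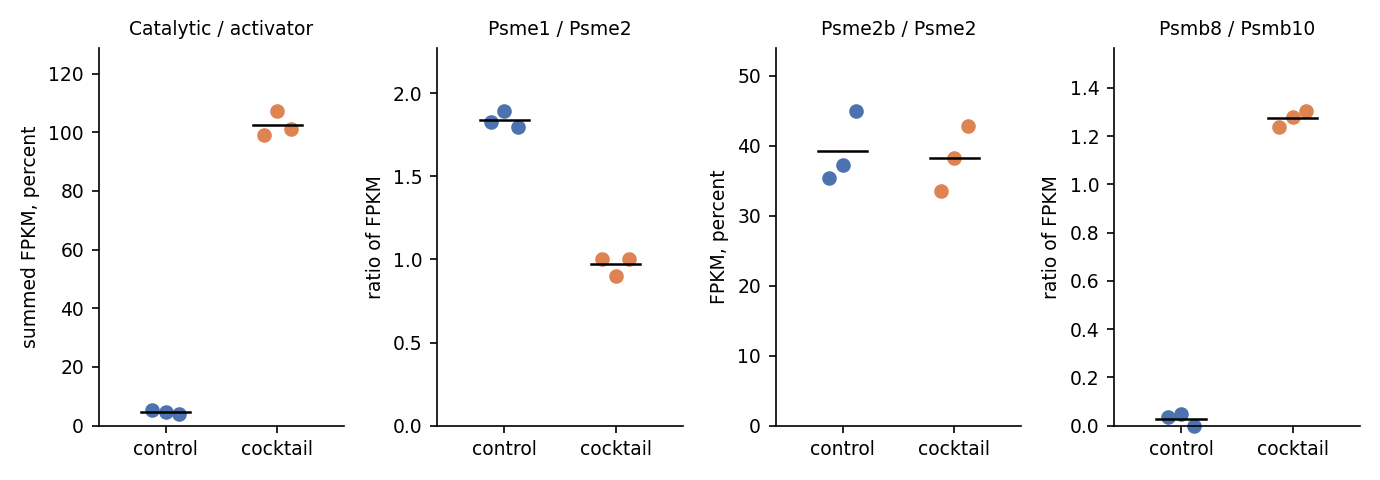
Values in each control and cocktail library, with the group mean as a line: summed catalytic FPKM as a percent of summed activator FPKM, the Psme1 to Psme2 ratio, Psme2b as a percent of Psme2, and the Psmb8 to Psmb10 ratio. Groups are apart in all but the Psme2b percentage, which spans 33.5 to 45.0 over the 6 libraries.

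The genes can be placed within the table by their level. Of the 530 genes with a mean of at least 1 FPKM in either group, all 6 subunit genes among them, 100% passed limma at an adjusted p under 0.05 and 59.2% were higher with the cocktail, since the authors had chosen the table for change; that the 6 subunit genes are among the 363 that the authors list as higher therefore says nothing more about them. The median log2 ratio over the 333 higher genes with a control value above 0 was 1.79, so Psme1 at 1.69 lay just below it, and the other 5 above. By level with the cocktail the genes ranked 20 (Psme2), 21 (Psme1), 22 (Psmb8), 26 (Psmb10), 30 (Psmb9) and 39 (Psme2b) of 363. By control level they ranked from 5 (Psme1) to 301 (Psmb8). In the authors' deposited table the log2 fold changes were 10.56 for Psmb8, 7.54 for Psmb9, 5.24 for Psmb10, 2.65 for Psme2, 2.61 for Psme2b and 1.72 for Psme1, which rank 20, 45, 67, 133, 134 and 213 among the higher genes.

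**Figure D4:**
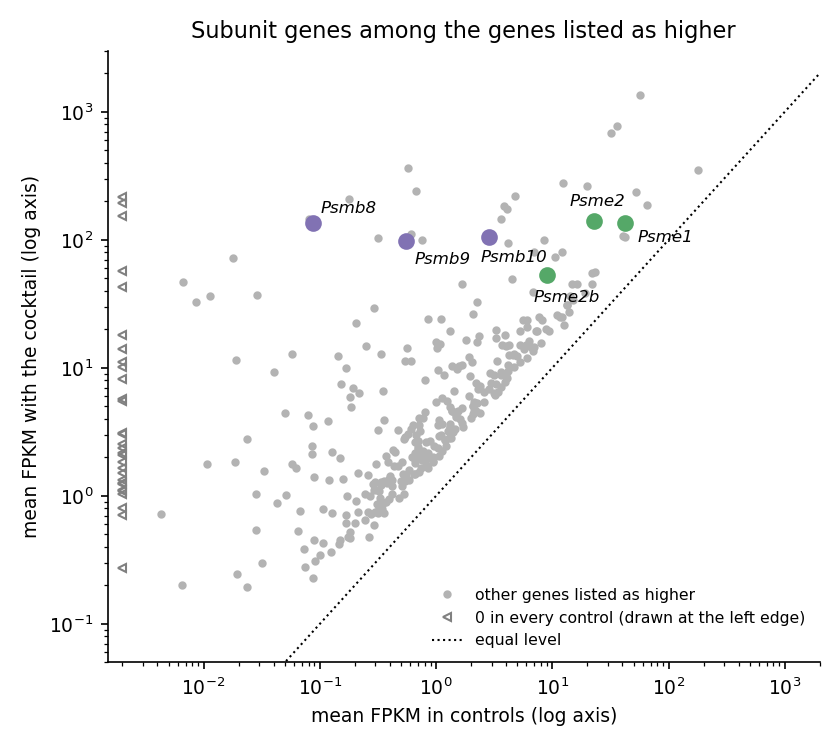
Mean FPKM in the controls against mean FPKM with the cocktail (both log axes) for the 363 genes listed as higher, with catalytic genes in purple, activator genes in green, and 30 genes at 0 in every control at the left edge. The 6 subunit genes lie in a band between 53.3 and 140.2 FPKM with the cocktail while their control levels run from 0.0868 to 42.1.

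Each of the 6 genes was compared with the named genes of the table outside the 6, by Euclidean distance in log2(FPKM + 1) over the libraries. The 6 themselves were left out, so a fellow subunit gene may lie nearer than the genes given here. The nearest to Psmb8 were the guanylate-binding protein gene Gbp2b (distance 0.31) and the GTPase gene Iigp1 (0.42). Nearest to Psmb9 were the transcription factor gene Irf8 (0.37) and Gbp7 (0.49), and nearest to Psmb10 were the class I gene H2-T22 (0.86) and Irf1 (1.15). The activator genes had other neighbours: Psme1 had the aminopeptidase gene Lap3 (0.63) and Tcf7 (0.74), Psme2 had Lap3 (1.56) and H2-Q4 (1.63), and Psme2b had the complement inhibitor gene Serping1 (0.92) and Stat3 (0.98). Irf8 was at 0.753 FPKM in the controls and at 99.4 with the cocktail, and Lap3 at 40.6 and 106, close to the levels of Psmb9 and Psme1. Such closeness follows from choosing genes by distance over the same libraries, and only genes of the table could be chosen.

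The loci around these genes hold further genes of the table. Within 100 kb of Psmb8 and Psmb9 the table lists each of the pair and both peptide transporter genes, all higher, among 10 and 11 other protein-coding genes there. Tap1 stood at 4.07 ± 0.269 FPKM in the controls and at 175 ± 2.33 with the cocktail (SD, n = 3). Tap2, whose product pairs with that of Tap1, stood at 0.855 ± 0.159 and 23.9 ± 1.10 (SD, n = 3). Near Psme1 and Psme2 the table holds Irf9, 12458 bases from Psme2, at 3.30 ± 0.744 FPKM in the controls and 19.7 ± 1.28 with the cocktail (SD, n = 3). Irf9 is the DNA-binding subunit of a complex that acts downstream of type I interferon. Psme2b has 7 genes of the table within 100 kb, all higher, where GENCODE annotates 8 other protein-coding genes. Counts of higher neighbours stand against 363 higher genes among the 633 of the table, so nothing is read from their direction. They include the interferon-inducible GTPase genes Tgtp1, 39137 bases away, at 217 FPKM with the cocktail, and Irgm1, 73671 bases away, at 240.7. Psme2b also lies inside the longer gene Gm12185 and shares 41 bases with 9930111J21Rik1, both on its own strand, so reads of these genes could be assigned to it. None of the table's genes lies within 100 kb of Psmb10, which has 16 other protein-coding genes in that window.

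Of the other genes that act with the immunoproteasome, those of peptide supply and of interferon signalling were examined as lists. Of 12 genes of class I peptide supply and loading, 9 have a row, and all 9 were higher, with a median log2 ratio of 4.42. The peptide trimming enzyme gene Erap1 was at 2.10 ± 0.0915 FPKM in the controls and 26.2 ± 1.66 with the cocktail, and the loading factor gene Tapbp at 12.1 ± 0.900 and 80.2 ± 3.90 (SD, n = 3). Nlrc5, the transactivator of class I genes and of Psmb9, was listed at 0 in controls 1 and 3, at 0.0341 FPKM in control 2, and between 35.8 and 37.2 with the cocktail. Of 15 genes of interferon signalling, 6 have a row and all 6 were higher, with a median log2 ratio of 3.63. Irf1, a transcription factor known to act on the shared Psmb9 and Tap1 promoter, was at 3.62 ± 0.509 FPKM in the controls and at 145 ± 2.81 with the cocktail (SD, n = 3). These lists, like the subunit genes, come from a table of changed genes, so their counts are no evidence of direction. Their medians cover only genes with a row, which the authors had chosen for change, so a large median is favoured. Over the 333 higher genes of the table with a control value above 0 the median was 1.79.

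Several genes that would frame these values were not analysed here. The standard catalytic subunits Psmb5, Psmb6 and Psmb7 have no row in the table, nor do 13 other genes of the proteasome core, 21 of its regulatory particle and 8 of its other activators and assembly. The 6 subunit genes are all the genes that the table's pathway annotation places in the proteasome. Whether the standard subunits differed between the groups was therefore not tested. None of the 8 immune cell, 3 pluripotency, 4 epithelial and 2 oral ectoderm markers has a row, so the labelled cell type could not be checked and the part of other cell types in these values was not tested. In bulk samples, fewer cells of a type and less RNA per cell cannot be told apart. None of the 6 genes has a row in the table of 546 genes from the co-culture experiment, so their level there was not analysed here.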

How the data were processed

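Poly(A) RNA of 3 cocktail and 3 control libraries was analysed. Per the submitters' processing notes, HISAT2 and the build GRCm38 were used. The quantifier and annotation are not given in the sources used. The authors deposited FPKM per gene and library for 633 genes, per the file headers, with the authors' adjusted p-value (FDR, at most 0.0099) and log2 fold change (at least 1.002 in size). Of that workbook, 6 count columns and 6 columns with numbers for names were left out: the control columns match no single sample, so 1 measure was kept. The planned edgeR fit on the counts, which had been looked at earlier, was therefore replaced by limma, and depth was not analysed. A malformed line (1) was dropped.

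The values log2(FPKM + 1) of genes averaging 1 FPKM or more in a group were fitted by limma 3.58.1 in R 4.3.3 (trend on), with Benjamini-Hochberg adjustment at 0.05, and served only for the share of genes called. It was tested on simulated data. Ratios are of group mean FPKM without a pseudocount. Fold changes on the log2(FPKM + 1) scale understate low genes. Sequences are from RefSeq (promoters) and GENCODE M21 (transcripts, aligned with Biopython 1.88), and all 6 genes matched. GENCODE M21 matched 594 of the table's identifiers and lacked 39. Protein sequences were not used here. Pseudocounts, the filter, a rescaling, the make-up of the classes and left-out libraries were the alternatives.

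The genes and lists were chosen with earlier results of these data known. Named are the 6 genes, list genes with a row, and for each of the 6 the 2 nearest genes outside them in log2(FPKM + 1). A further gene of the interferon list is not reported here and was taken out of its count and median. The genes within 100 kb were added after values were seen.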

Additional observations from a re-analysis of the deposited data

How the results depend on the processing

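Adding 1 FPKM before the ratio, or limma on log2(FPKM + 1), compressed the genes with low controls by construction. The log2 ratio of Psmb8 was then 6.96 under both, that of Psmb9 6.00 and 5.99, and the difference between classes 3.54 under both, against 10.59, 7.47 and 4.89 in the report. Scaling every library to the same table total, chosen after seeing the data, moved the log2 ratios of 603 genes with a value in both groups by a median of -1.80. Psme1 then turned to -0.11, and Psmb8 was at 8.82, Psmb9 at 5.66, Psmb10 at 3.42, Psme2 at 0.82 and Psme2b at 0.77, while the class difference was 4.88. Under that scaling 463 of 542 genes were called, 122 higher and 341 lower, against 314 and 216 of 530 as deposited. The totals come from genes chosen for change, so this scaling cannot decide a direction. No other alternative turned the direction of any of the 6 genes. Without Psme2b the class difference was 5.32, and with class means in place of medians 5.46. Leaving out 1 library at a time gave 4.80 to 5.06 for the class difference, 10.01 to 11.05 for Psmb8, 7.36 to 7.63 for Psmb9, 5.02 to 5.44 for Psmb10, 1.63 to 1.74 for Psme1, 2.57 to 2.67 for Psme2 and 2.54 to 2.66 for Psme2b, with 526 to 532 genes called. Without the filter on low values 633 of 633 were called. No fit on counts is reported, though one with edgeR was planned. No paired analysis was possible because the columns used carry no link between a control and a cocktail library, and none of the 6 genes has a row in the co-culture table.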
